A study of Mus musculus with 2 samples.

Results

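The Dlx homeobox genes lie in the mouse genome as 3 pairs, Dlx1 with Dlx2 on chromosome 2, Dlx3 with Dlx4 on chromosome 11 and Dlx5 with Dlx6 on chromosome 6. All 6 genes are described here through the peaks of histone H3 lysine 4 monomethylation (H3K4me1) that lie from 50 kb before to 50 kb after each pair, in mm10 coordinates. These 3 windows held 101 of the 226060 peaks that the authors kept as replicated, 143 of the 313453 peaks of replicate 1 and 131 of the 325226 peaks of replicate 2. The windows share no bases, so no peak was counted more than once.

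The study is a chromatin immunoprecipitation and sequencing (ChIP-seq) experiment with an antibody to H3K4me1 in E14TG2a.4, a line of embryonic stem cells from a male mouse embryo of strain 129/Ola. It holds 2 biological replicates of 1 group, with no treatment or genetic change named in the labels. Both replicates carry the same donor label, and no control library was analysed here. The data are lists of peaks without read counts, so the depth of each library is unknown, and with 1 group of 2 samples no test between conditions could be made.

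H3K4me1 is a histone mark found at enhancers, both active and poised, and on the shoulders of active or poised promoters, while the nucleosomes next to a start site usually carry the trimethylated form instead. Dlx genes encode homeodomain transcription factors related to Drosophila Distal-less. Dlx1 and Dlx2 are needed for the formation and migration of forebrain GABAergic interneurons, Dlx5 and Dlx6 for the lower jaw, the limbs and bone, and Dlx3 for the placenta, epidermis, hair and teeth, while Dlx4 is the least studied of the family. The genes of a pair point towards each other, and the stretch between them is known to hold enhancers that both genes share in the embryo.

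Of the 6 genes, Dlx1 and Dlx2 were matched in the RefSeq table of promoters (GRCm38.p6, 250 bases before to 50 after a start), and their sequences are shown because the peaks of both replicates stop short of them or break within them. Capitals mark CG dinucleotides. The Dlx1 entry is chr2:71529195-71529494 on the plus strand and the Dlx2 entry chr2:71546705-71547004 on the minus strand, both written 5′ to 3′.
Dlx1 promoter: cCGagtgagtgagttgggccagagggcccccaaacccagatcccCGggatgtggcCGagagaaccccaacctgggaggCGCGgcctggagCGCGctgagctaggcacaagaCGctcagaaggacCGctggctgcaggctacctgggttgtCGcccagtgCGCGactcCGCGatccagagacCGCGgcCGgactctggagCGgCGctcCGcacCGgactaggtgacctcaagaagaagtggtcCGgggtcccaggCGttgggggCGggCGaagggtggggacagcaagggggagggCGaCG
Dlx2 promoter: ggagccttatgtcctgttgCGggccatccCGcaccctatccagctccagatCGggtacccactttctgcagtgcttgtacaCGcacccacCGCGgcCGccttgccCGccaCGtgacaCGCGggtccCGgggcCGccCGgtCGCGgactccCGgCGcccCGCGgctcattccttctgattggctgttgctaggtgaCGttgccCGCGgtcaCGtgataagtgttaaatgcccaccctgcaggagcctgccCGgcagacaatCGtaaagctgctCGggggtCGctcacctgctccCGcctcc
Both are rich in CG. The Dlx1 promoter held 27 CG dinucleotides, more than 84.5% of the 32851 promoters in the table, and the Dlx2 promoter held 29, more than 87.1%, where the median promoter held 7. Peaks covered 65.3% of the Dlx1 promoter in replicate 1 and 18.3% in replicate 2. They covered 14.7% of the Dlx2 promoter in replicate 1 and 0% in replicate 2, so the CG-rich start of Dlx2 lay nearly free of peaks while its flanks were marked.

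The stretches between the partner genes were searched for TAATTA, the core that many homeodomain proteins bind, which reads the same on both strands. The search used the mm9 genome with the authors' separate mm9 peak lists, since no mm10 genome was used here. TAATTA occurred 6 times between Dlx1 and Dlx2, 6 times between Dlx5 and Dlx6 and 3 times between Dlx3 and Dlx4. Between Dlx1 and Dlx2, 0 of the 6 copies lay in a peak of either replicate, although peaks covered 70.3% of that stretch in each. In the series list these 6 copies shared 1 stretch without peaks, between 71373600 and 71376201, so they are not separate absences. Between Dlx5 and Dlx6, replicate 1 peaks held 2 of the 6 copies and replicate 2 peaks 0, with 65.0% and 43.4% of the stretch covered. Between Dlx3 and Dlx4, replicate 1 peaks held 3 of the 3 copies and replicate 2 peaks held 1, with 83.1% and 66.0% covered. The 4 windows of 300 bases below show the runs with the most copies and, for Dlx3 and Dlx4, the copy inside peaks of both replicates, which was chosen after its values were seen. All are on the plus strand of mm9, and capitals mark TAATTA.
Between Dlx1 and Dlx2, mm9 chr2:71373619-71373918: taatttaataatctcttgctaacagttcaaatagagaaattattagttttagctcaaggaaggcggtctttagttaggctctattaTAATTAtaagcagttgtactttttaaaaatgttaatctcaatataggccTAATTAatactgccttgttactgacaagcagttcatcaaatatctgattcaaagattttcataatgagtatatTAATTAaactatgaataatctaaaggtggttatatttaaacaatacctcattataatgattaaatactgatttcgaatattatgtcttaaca
Between Dlx6 and Dlx5, first window, mm9 chr6:6819483-6819782: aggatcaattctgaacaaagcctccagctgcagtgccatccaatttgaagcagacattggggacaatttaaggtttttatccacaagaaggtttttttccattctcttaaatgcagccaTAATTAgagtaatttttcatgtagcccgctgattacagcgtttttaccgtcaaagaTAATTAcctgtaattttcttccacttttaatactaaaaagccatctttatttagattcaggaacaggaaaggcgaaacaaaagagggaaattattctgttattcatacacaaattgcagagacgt
Between Dlx6 and Dlx5, second window, mm9 chr6:6822427-6822726: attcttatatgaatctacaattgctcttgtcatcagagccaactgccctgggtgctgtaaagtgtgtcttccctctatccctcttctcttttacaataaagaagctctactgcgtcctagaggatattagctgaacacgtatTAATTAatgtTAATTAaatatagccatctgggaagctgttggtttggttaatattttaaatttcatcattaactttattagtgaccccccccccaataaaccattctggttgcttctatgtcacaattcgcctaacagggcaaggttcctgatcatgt
Between Dlx3 and Dlx4, mm9 chr11:94998914-94999213: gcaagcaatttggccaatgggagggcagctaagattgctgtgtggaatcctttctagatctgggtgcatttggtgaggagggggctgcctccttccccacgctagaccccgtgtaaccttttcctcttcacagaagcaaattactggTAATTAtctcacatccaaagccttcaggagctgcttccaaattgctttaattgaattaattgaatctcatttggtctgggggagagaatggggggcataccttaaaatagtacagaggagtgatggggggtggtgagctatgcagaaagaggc
The Dlx1/Dlx2 window held 3 copies, lay within the antisense gene Dlx1as and was outside the peaks of both replicates, the nearest of which in the series list ended at 71373600. The first Dlx5/Dlx6 window held 2 copies, overlapped the antisense gene Dlx6os1 and was also outside all peaks. The second Dlx5/Dlx6 window held 2 copies, overlapped no gene record, and was wholly covered in replicate 1 and not at all in replicate 2. The windows above were picked for their copies and centred on them, so the rates that follow, from windows not picked in this way, are not matched to them. Across the mm9 genome, 10.6% of fixed tiles of 300 bases held TAATTA at least once, 1.19% at least 2 times and 0.190% at least 3 times. It occurred in 7.06% of the central 300 bases of the intervals in the mm9 series list and in 5.29% of the RefSeq promoters, and in neither the Dlx1 nor the Dlx2 promoter. These matches describe letters in the sequence and show no binding.

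Coverage below is the percent of bases that lie in peaks, given for each replicate and as mean ± SD over n = 2. The 3 windows differed in how much of them was marked. The Dlx3/Dlx4 window, chr11:95070117-95196294, had coverage of 45.8% in replicate 1 and 35.7% in replicate 2 (40.8% ± 7.16). The Dlx1/Dlx2 window, chr2:71478113-71596754, had 24.8% and 21.2% (23.0% ± 2.50). The Dlx5/Dlx6 window, chr6:6813334-6932068, had 14.6% and 11.6% (13.1% ± 2.16). The order was the same in each replicate, and the values of the 3 windows did not overlap between replicates. The replicated list gave that order too, with 43.9%, 26.2% and 15.5% of bases and with 49, 35 and 17 peaks.

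The pairs were set beside the 2678 other pairs of neighbouring protein-coding genes that point towards each other within 20 kb, measured with the same 50 kb flanks. Their median coverage was 19.6%, with quartiles of 8.73% and 34.8%. Coverage was lower than at Dlx3/Dlx4 in 83.3% of them, lower than at Dlx1/Dlx2 in 56.0% and lower than at Dlx5/Dlx6 in 35.9%. Measured over the whole windows, 1 Dlx pair thus stood above the upper quartile of such loci and the other 2 between the quartiles. The stretch between the genes stood higher in that order. Between Dlx1 and Dlx2, a gap of 9426 bp, coverage was 63.2% and 55.1% (59.1% ± 5.75), above 93.5% of the 1128 other pairs whose gap was at least 5 kb. Between Dlx3 and Dlx4, a gap of 15150 bp, it was 48.7% and 34.6% (41.7% ± 9.96), above 87.3% of them. Between Dlx5 and Dlx6, a gap of 9830 bp, it was 36.3% and 33.4% (34.9% ± 2.09), above 82.8% of them. The median gap of the other pairs had 6.51% of its bases in peaks, so all 3 Dlx stretches lay above the upper quartile of 24.8%. The other pairs were not matched for gene length. The Dlx gene records were from 3347 to 5869 bp long, so each edge of a gap lay that far from the start site of the gene beside it. The gaps themselves were longer, from 9426 to 15150 bp, so much of each lay further from the start sites. Whether Dlx pairs differ from other pairs was not tested.

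**Figure D1:**
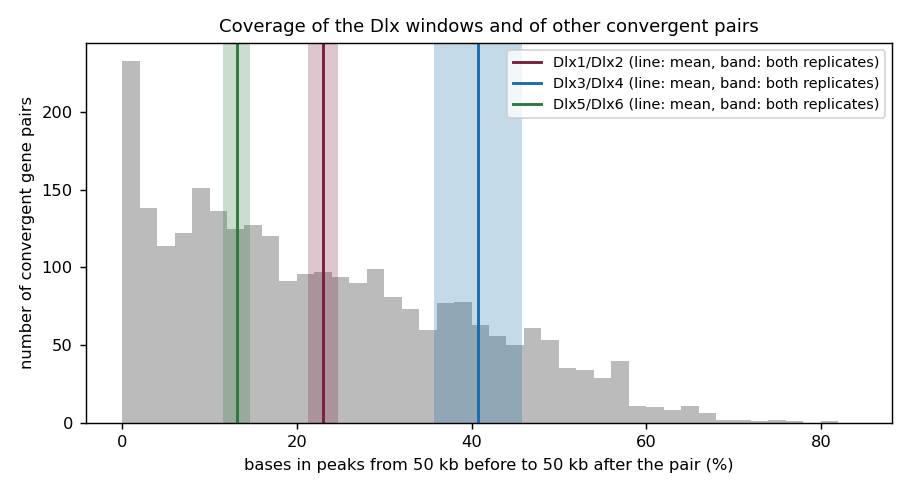
Number of convergent gene pairs (vertical axis) by the percent of bases in H3K4me1 peaks from 50 kb before to 50 kb after the pair (horizontal axis, mean of 2 replicates), with a line at the mean of each Dlx pair and a band between its replicates. The bands do not overlap, and the Dlx3/Dlx4 line at 40.8% lies above the upper quartile of the other pairs at 34.8%.

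In the Dlx1/Dlx2 window coverage was higher on and between the genes than over either flank. The Dlx1 gene record had coverage of 77.9% in replicate 1 and 65.8% in replicate 2 (71.9% ± 8.51), and the Dlx2 record 70.7% and 51.7% (61.2% ± 13.4). The 50 kb before Dlx1 had 22.6% and 19.5%, while the 50 kb beyond Dlx2 had 10.4% and 9.26%. From 10 to 20 kb before Dlx1 no base lay in a peak of either replicate, whereas the 10 kb next to the gene had 44.4% and 40.1%. When peaks less than 1 kb apart were joined, the replicated list gave a domain of 12570 bp, chr2:71522964-71535533, over Dlx1, part of Dlx1as and the 3′ end of Metap1d, which encodes a mitochondrial methionine aminopeptidase. A second domain of 10030 bp, chr2:71538485-71548514, ran over the other side of the gap and all of Dlx2. Between them 2951 bp, chr2:71535534-71538484, held no peak in either replicate. The longest stretches without a replicated peak that lie wholly between the partners of the other pairs were 2182 bp at Dlx3/Dlx4 and 2104 bp at Dlx5/Dlx6.

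The strongest peak of the Dlx1/Dlx2 window, chr2:71524650-71526707, had a signal of 8.70 in the replicated list, 8.24 in replicate 1 and 8.35 in replicate 2. Signal here is the authors' value for a peak, used only to rank peaks within a list. The summit of that peak was 2072 bp before the Dlx1 start, and 94.5% of all replicated peaks had a lower signal. The next, chr2:71541301-71542860, lay between the genes with a signal of 7.77, and beside it lay the widest peak, chr2:71538485-71541145, of 2661 bp and a signal of 7.42. Both lie in the part of the gap next to Dlx2. The third by signal, chr2:71552152-71552471, was 320 bp wide and lay 5530 bp upstream of Dlx2, with 7.65 in the replicated list, 8.91 in replicate 1 and 5.22 in replicate 2. It was the strongest peak of replicate 1 in this window but not of replicate 2.

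In the Dlx3/Dlx4 window most marked bases lay before Dlx3. The 50 kb before Dlx3 had coverage of 65.0% in replicate 1 and 52.5% in replicate 2 (58.7% ± 8.83), close to the Dlx3 gene record itself with 67.2% and 62.9% (65.1% ± 3.03). The ranges of these segments overlapped. The Dlx4 record had 59.7% and 50.6% (55.1% ± 6.46), and the 50 kb beyond Dlx4 had 22.0% and 14.7% (18.3% ± 5.16). Coverage before Dlx3 was highest away from the gene. It was 80.1% and 70.4% from 30 to 40 kb before it, and 88.0% and 78.5% from 40 to 50 kb, where the window reaches Itga3, an integrin alpha chain of epithelial cells. On the other side, beyond Dlx4, a stretch of 23087 bp, chr11:95153672-95176758, held no replicated peak. Replicate 1 alone had peaks in it, with coverage of 9.29% from 10 to 20 kb beyond Dlx4 against 0% in replicate 2.

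The strongest of the 101 replicated peaks was in the flank before Dlx3. It was chr11:95084847-95089690, 4844 bp wide, with a signal of 11.1 in the replicated list, 12.0 in replicate 1 and 10.4 in replicate 2. Its summit was 33746 bp before Dlx3 and outside any gene record, and it was both the strongest and the widest peak of the 3 windows. Of all replicated peaks, 98.9% had a lower signal. A narrow neighbour of 534 bp, chr11:95084146-95084679, followed with a signal of 9.97. The third, chr11:95126285-95127382, lay between the partner genes with 9.86 in the replicated list, 9.58 in replicate 1 and 7.93 in replicate 2. Its summit was 6897 bp from the Dlx3 start. Joined at 1 kb, the peaks of this window formed 20 domains. The 3 widest were 15416 bp over Itga3, 12479 bp in the stretch before Dlx3 that holds no gene (chr11:95095396-95107874) and 11074 bp over Dlx3 (chr11:95117923-95128996). The first runs past the edge of the window, so only part of it is counted in the coverage.

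In the Dlx5/Dlx6 window the marked bases were held close to the genes. The Dlx5 record had the highest coverage of the 6 gene records, 84.9% in replicate 1 and 72.4% in replicate 2 (78.6% ± 8.90), although the range overlapped that of Dlx1. The Dlx6 record had the lowest, 24.95% and 17.6% (21.3% ± 5.18), and both values were below those of the other 5 genes. Partners thus differed most in this pair. The 50 kb beyond Dlx5 had 2.01% and 0.800%, the lowest of any segment. From 20 to 50 kb before Dlx6, and from 10 to 50 kb beyond Dlx5, neither replicate had a peak. In the replicated list the peak-free ends of the window were 36756 bp, chr6:6813334-6850089, and 46566 bp, chr6:6885503-6932068.

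**Figure D2:**
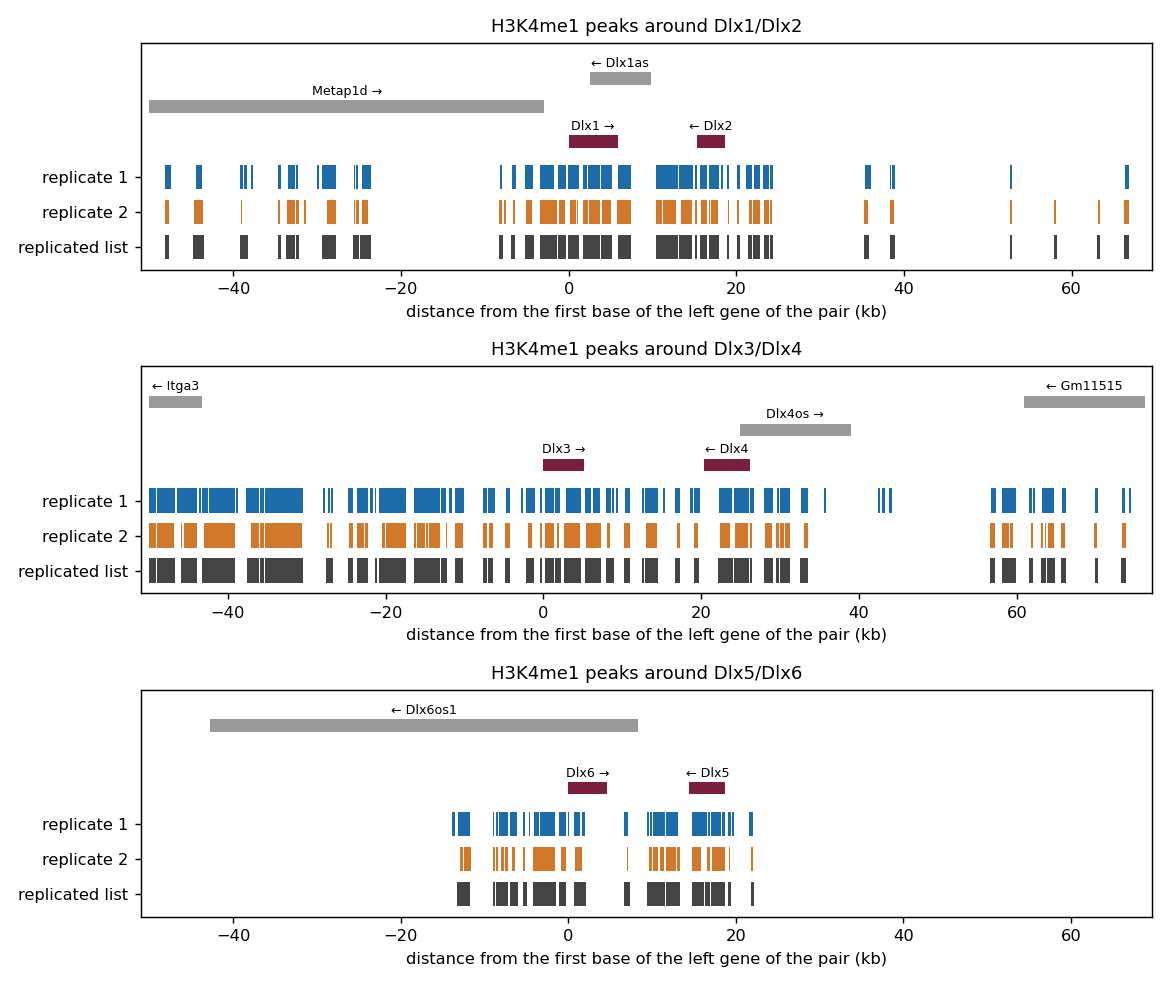
H3K4me1 peaks of replicate 1, replicate 2 and the replicated list as bars in the 3 Dlx windows, to scale in kb from the first base of the left gene of each pair, with Dlx gene records in dark red, other records in grey and arrows for the strand. Peaks fill much of the Dlx3/Dlx4 window and lie near the genes in the Dlx5/Dlx6 window, where stretches of 36756 and 46566 bp at the ends hold no replicated peak.

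The strongest peak at this pair, chr6:6878054-6879578, lay in Dlx5, 3231 bp downstream of the start, with a signal of 8.58 in the replicated list. Its signal was 11.1 in the replicate 1 list and 5.84 in the replicate 2 list, and in each list no peak of this window had a higher signal. The widest peak, chr6:6859112-6861830, was 2719 bp and lay 3925 bp upstream of Dlx6 within Dlx6os1, with signals of 7.54, 8.46 and 5.84 in the replicated list, replicate 1 and replicate 2. Dlx6os1 is the antisense RNA also called Evf, transcribed across the enhancers of this locus in the embryonic forebrain. The third peak by signal, chr6:6880368-6882033, covered the first part of Dlx5 with a signal of 6.84. Joined at 1 kb, a domain of 11137 bp, chr6:6854357-6865493, ran from the Dlx6 upstream flank to the front part of Dlx6. The 4553 bp after it, chr6:6865494-6870046, over the rest of Dlx6, held no replicated peak. The domain over Dlx5 was shorter, 4694 bp, chr6:6878054-6882747.

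**Figure D3:**
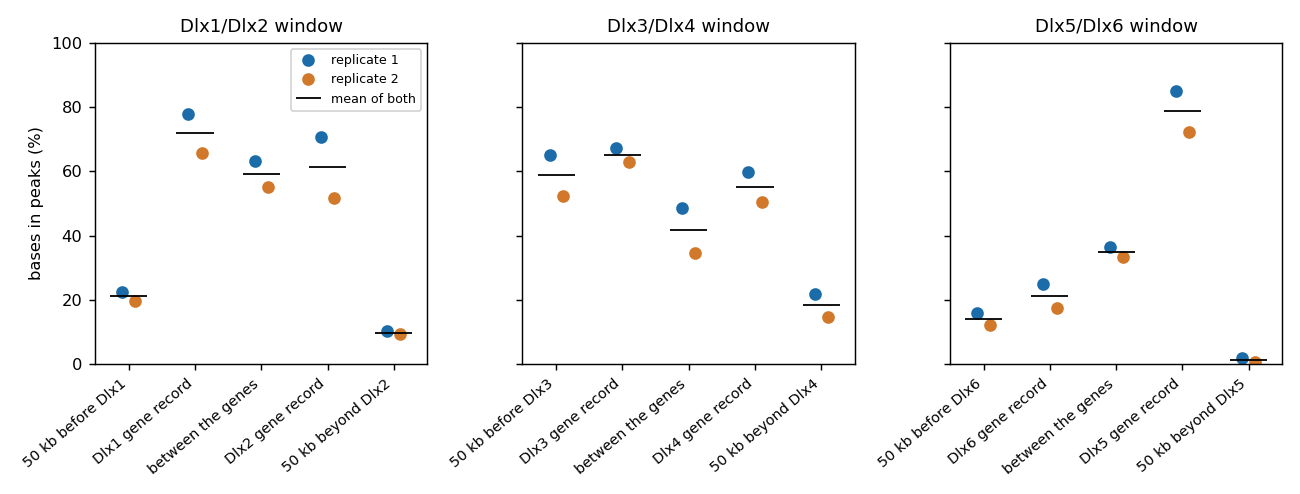
Percent of bases in H3K4me1 peaks in each segment of the 3 windows, as a point for each replicate and a line at their mean. The Dlx5 record is at 78.6% and the Dlx6 record at 21.3%, and the 50 kb beyond Dlx5 is at 1.40%.

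Exons and introns were read from the mm9 annotation and the mm9 lists, which call wider intervals. Dlx1 was almost all exon in that annotation, 5396 of its bases against 473 of intron, and 81.5% of its exonic bases lay in peaks of each replicate. Dlx5 had 80.3% and 100% of exonic bases and all intronic bases in peaks. Dlx6 had 17.7% and 16.4% of exonic bases and 43.6% and 37.7% of intronic bases in peaks, so it was the least marked gene in this build too.

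Around the start sites, coverage was measured over 20 kb on each side, where the median of 21536 protein-coding genes was 13.9%. All 6 Dlx genes were above that median. Dlx3 (chr11:95120117-95125296, plus strand), which acts in placenta and epidermis, had 55.3% in replicate 1 and 43.1% in replicate 2 (49.2% ± 8.67), higher than 88.9% of genes. Dlx2 (chr2:71543408-71546754, minus strand), a regulator of interneuron fate, had 44.9% and 36.8% (40.9% ± 5.70). Its partner Dlx1 (chr2:71528113-71533981, plus strand) had 44.1% and 37.5% (40.8% ± 4.69). These partners had nearly the same level and were higher than 82.4% of genes each. Dlx6 (chr6:6863334-6867970, plus strand), a jaw and limb gene, had 42.2% and 33.9% (38.0% ± 5.88). Dlx4 (chr11:95140447-95146294, minus strand) had 38.4% and 26.9% (32.6% ± 8.08). Dlx5 (chr6:6877801-6882068, minus strand), a regulator of bone formation, had 25.7% and 20.3% (23.0% ± 3.81), higher than 63.4% of genes. From Dlx3 down to Dlx4 the ranges of neighbours in this order overlapped, while both values of Dlx5 were below all values of the other 5 genes. The windows around the starts of partners overlap, so they share bases and are not independent.

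The order depended on the width measured. Over 5 kb on each side it was led by Dlx1 with 74.5%, then Dlx4 with 61.2%, Dlx2 with 55.8%, Dlx3 with 50.5%, Dlx6 with 42.9% and Dlx5 with 40.6%. Over 50 kb it was led by Dlx3 with 46.5%, and Dlx5 and Dlx6 were both at 15.5%, since every peak near them lies in both windows. Dlx5 was thus lowest, or level with Dlx6, at each of the 3 widths.

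All 6 start sites had a replicated peak within 2 kb, which 72.8% of protein-coding genes had. The start lay inside a replicated peak at 2 of the 6, Dlx1 and Dlx4, against 18.9% of genes. It lay between peaks on both sides within 2 kb at the other 4, against 43.2% of genes. The 4 flanked genes were Dlx2, with 912 bp between the peaks, Dlx3 with 363 bp, Dlx5 with 400 bp and Dlx6 with 989 bp. Among all flanked genes the median distance was 1000 bp, so all 4 Dlx gaps were shorter than the median, those of Dlx2 and Dlx6 only slightly. Of all flanked genes, 44.0% had a shorter gap than Dlx2. The Dlx2 gap was 473 bp in replicate 1 and 1178 bp in replicate 2. In replicate 2 the gap was 1080 bp at Dlx6, 401 bp at Dlx3 and 407 bp at Dlx5. The shortest gap of the replicated list, at Dlx3, had a peak 182 bp away on each side of the start. At Dlx1, Dlx4 and Dlx6 the replicates differed in whether the start lay inside a peak. The starts of Dlx1 and Dlx4 lay inside a peak of replicate 1, whereas in replicate 2 the nearest peaks were 412 bp upstream and 211 bp downstream of the Dlx1 start, and 16 bp upstream and 231 bp downstream of the Dlx4 start. The Dlx6 start also lay inside a peak of replicate 1, whereas in replicate 2 the nearest peaks were 316 bp upstream and 765 bp downstream. The Dlx1 call also depends on where the gene starts: at the start of its RefSeq promoter entry, 71529445, the site lay between replicated peaks 133 bp upstream and 379 bp downstream.

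In 100 bp steps from each start, the step at which all 6 genes were fully marked lay on the transcribed side and was chosen after its values were seen. From 1000 to 1100 bp downstream every base of all 6 genes lay in peaks of both replicates, where all protein-coding genes averaged 45.5% for replicate 1 and 40.4% for replicate 2. For Dlx1 this holds for the start of its gene record, 71528113. Steps from the start of its RefSeq promoter entry, 71529445, were not measured. In the first 100 bp downstream the mean of the 6 was 44.7% in replicate 1 and 16.0% in replicate 2, where all genes had 19.6% and 15.04%. Beyond that the partners had different patterns. Over the 100 steps Pearson's r between partners was -0.13 for Dlx1 and Dlx2, 0.17 for Dlx3 and Dlx4 and -0.11 for Dlx5 and Dlx6. The same gene in the 2 replicates gave r from 0.63 for Dlx1 to 0.76 for Dlx4. Neighbouring steps often share a peak, so these values are descriptions over steps that are not independent.

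**Figure D4:**
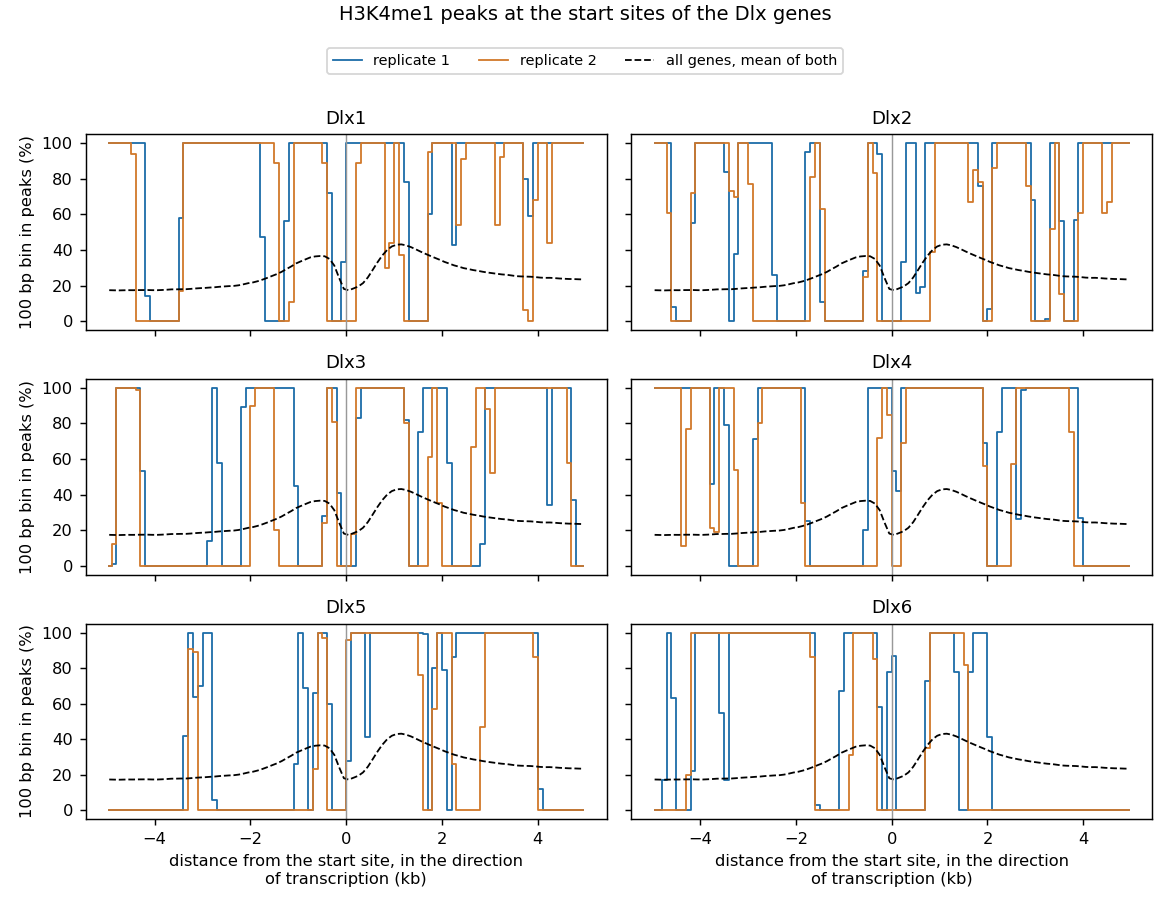
Percent of each 100 bp step in H3K4me1 peaks from 5 kb before to 5 kb after the start site of each Dlx gene, in the direction of transcription, with replicates as coloured lines and the mean over all protein-coding genes dashed. From 1000 to 1100 bp downstream all 6 genes are at 100% in both replicates, with Dlx1 measured from the start of its gene record.

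The protein-coding genes outside the windows with the most similar pattern over these 100 steps, by the mean of both replicates, were different for each gene. For Dlx1 they were Zfp292 (r = 0.57), Inppl1 (0.55) and Foxo3 (0.51), and for Dlx2 they included Acvr1b (0.61) and Eif3g (0.60). For Dlx3 they included Bpnt1 (0.62) and Tmem101 (0.57), and for Dlx4 they were Mks1 (0.71), Sp2 (0.65) and Unc45b (0.63). For Dlx5 they were Lgals7 (0.78), Col12a1 (0.76) and Sult5a1 (0.76), and for Dlx6 they were Gm52523 (0.78), Stx5a (0.77) and Mapk9 (0.75). Nothing is said here of shared function or control. The r between any 2 Dlx genes ran from -0.33 to 0.25 over the 15 combinations.

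The peaks of the windows were then followed from replicate to replicate. Both replicates overlapped 96 of the 101 replicated peaks (95.0%, against 91.4% of the whole list). Replicate 2 overlapped 36 of 42 replicate 1 peaks at Dlx1/Dlx2, 54 of 73 at Dlx3/Dlx4 and 22 of 28 at Dlx5/Dlx6, against 82.8% of the whole replicate 1 list. In the other direction replicate 1 overlapped 44 of 48, 61 of 61 and 22 of 22 replicate 2 peaks, against 79.4% of the whole list. The 19 replicate 1 peaks without a partner at Dlx3/Dlx4 were short, from 165 to 478 bp, with signals from 2.14 to 4.90. Replicate 1 covered more bases than replicate 2 in all 3 windows and around all 6 start sites, against 51.8% of other convergent pairs and 50.4% of genes. Over the genome replicate 1 peaks covered 210615870 bp and replicate 2 peaks 214601915 bp, so the direction at the Dlx genes was not that of the whole lists. It was not particular to the Dlx genes, since every NK, Msx and Iroquois homeobox gene listed below had it too. Median coverage around their starts was 31.6% and 26.7% for the NK and Msx genes, and 21.7% and 17.1% for the Iroquois genes. Of the lists below, only the fibroblast markers had a lower median in replicate 1 (2.89% and 3.39%). The start-site windows of partners share bases, and the difference between 2 replicates of 1 group was not tested.

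The labelled cell type was set beside marker genes. All 10 embryonic stem cell markers had a replicated peak within 2 kb of the start, against 72.8% of protein-coding genes. Their median coverage was 50.8% over 20 kb on each side, and 9 were above the median of all genes. The highest was Sall4 with 72.7% ± 0.633 and the lowest Esrrb with 8.08% ± 0.147, below that median. Of 10 fibroblast markers, 5 had such a peak, with a median of 3.14%, and 4 were above the median of all genes. Col3a1, Dcn and Fap were among those without, Col3a1 being at 0% in both replicates, and Pdgfrb was highest with 39.8%. Peaks of a histone mark do not measure RNA, and the level of Dlx transcripts was not analysed here.

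Genes that act with Dlx factors were counted in the same way, where 72.8% of all protein-coding genes had a replicated peak within 2 kb and the median coverage was 13.9%. Of 23 genes of forebrain GABAergic neurons, 23 had a replicated peak within 2 kb, their median coverage was 19.3%, and 17 were above the median of all genes. Gad1, which makes GABA, was highest with 40.2% ± 1.61, close to Dlx1 and Dlx2, and Maf was lowest with 3.36% ± 0.711. Of 23 genes of the branchial arches and jaw, 22 had such a peak, with a median of 21.3% and 18 above that of all genes. Prrx2 was highest with 53.6% ± 0.405, Ednra lowest with 2.61% ± 0.071, and Mef2c had no peak within 2 kb. Of 14 genes of bone, tooth, epidermis and placenta, where Dlx3 and Dlx5 act, 6 had such a peak, with a median of 2.95% and 5 above that of all genes. Those without included the enamel genes Ambn and Amelx and the osteocalcin gene Bglap. Bglap still had coverage of 18.1% ± 2.32 over 20 kb on each side, above the median of all genes. Alpl, an alkaline phosphatase that stem cells also express, was highest with 65.4% ± 0.120, and Ibsp, a bone matrix gene, was at 0%.

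Relatives of the Dlx genes among the homeobox genes followed. All 25 NK and Msx relatives had a replicated peak within 2 kb, against 72.8% of protein-coding genes. Their median coverage was 29.6%, and 23 were above the median of all genes. En2 was highest with 42.4% ± 1.20 and Barx2 lowest with 9.79% ± 0.025. All 6 Iroquois genes, which are also clustered homeobox genes, had such a peak, with a median of 19.4%, from 29.7% ± 4.87 for Irx4 to 9.50% ± 1.87 for Irx6. The median of the 6 Dlx genes was 39.4%. Of the other lists, only the stem cell markers had a higher median. Msx1, Msx2, Barx1, Nkx2-1 and Lhx8 stand in more than 1 list.

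**Figure D5:**
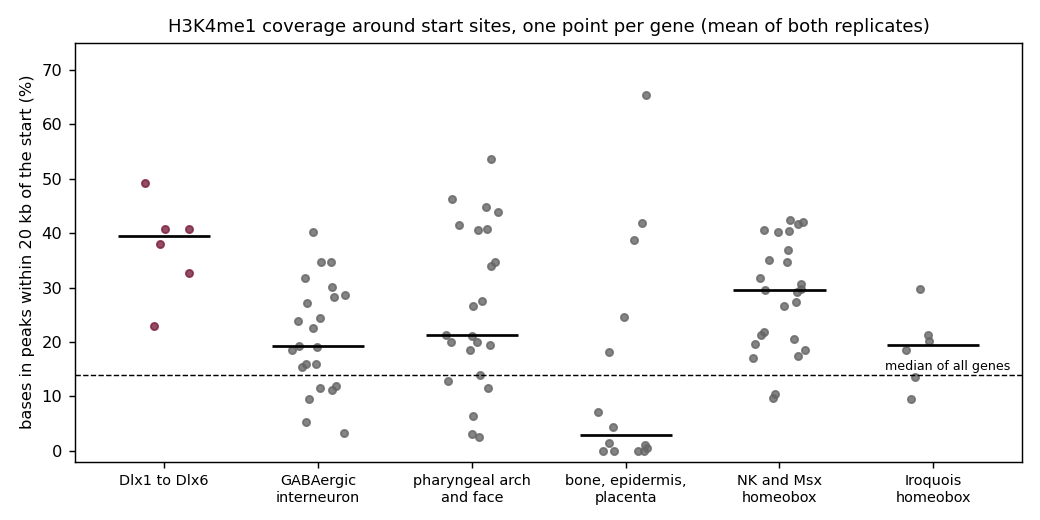
Coverage by H3K4me1 peaks over 20 kb on each side of the start site (percent of bases, mean of 2 replicates), with a point per gene and a line at the list's median. The Dlx genes and the lists of related genes are drawn, without the stem cell and fibroblast markers. The Dlx genes have a median of 39.4%, the NK and Msx genes 29.6% and the genes of bone, epidermis and placenta 2.95%, where the median of all protein-coding genes is 13.9%.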

How the data were processed

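H3K4me1 ChIP-seq peaks of 2 replicates of E14TG2a.4 cells were analysed as 1 group. The mm10 lists hold, in the deposited narrowPeak layout named in the read-me lists, a score, a signal, −log10 p and −log10 q values and a summit for each peak. The mm9 lists hold the signal and p-values and q-values the authors gave each interval. The aligner, the peak caller and the unit of the deposited signal were not given in the sources used here. The replicated list derives, per the read-me lists, from the lists of replicate 1, replicate 2 and the pooled replicates, and the replicate 2 and pooled lists also drew on a further file of unstated role. Depth is unknown, so no counting interval was given.

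Coverage is the percent of bases in peaks (overlap of at least 1 bp), computed with Python 3.11.15, numpy 2.4.6 and pandas 2.3.3 and drawn with matplotlib 3.10.9. Gene records were RefSeq GRCm38.p6, for 21536 protein-coding genes with a strand. Exons and motif sequence came from mm9, and no coordinates were converted. The measures were tested on simulated data. Alternatives were other lists, flanks, joining distances, window widths, overlaps and a −log10 q minimum of 2. Members and lists were chosen with earlier results of these data known. Named were all 6 genes, the 3 strongest and the widest replicated peak of each window, the peaks nearest each start, list genes without a promoter peak (up to 3) or at either end of coverage, and the 3 genes most like each member, some of which are not reported here.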

Additional observations from a re-analysis of the deposited data

How the results depend on the processing

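The order of the 3 windows by coverage held in each replicate and in the replicated, pooled and mm9 lists, and all 6 start sites kept a promoter peak under every alternative run. Values that moved past the replicate SD (coverage), a binomial interval (shares) or a fixed ratio (counts and domain widths) follow, 37 in all, while 66 stayed within these limits. Coverage of the Dlx1/Dlx2 window was 27.6% with the pooled list, 26.2% with the replicated list, 34.4% with the mm9 lists and 33.6% with flanks of 20 kb. That of Dlx3/Dlx4 was 58.2% with the mm9 lists. That of Dlx5/Dlx6 was 16.6% pooled, 15.5% replicated, 17.9% with mm9, 26.5% with flanks of 20 kb and 7.30% with 100 kb, where the wider flank holds fewer peaks for its length.

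Replicated peaks numbered 22 and 62 at Dlx1/Dlx2 and 29 and 88 at Dlx3/Dlx4 with flanks of 20 and 100 kb, and the replicate 1 list held 28 at Dlx5/Dlx6. The widest joined domains were 2661, 32616 and 180963 bp at Dlx1/Dlx2 with touching peaks, gaps of 3 kb and gaps of 10 kb, and 4844, 97440 and 256195 bp at Dlx3/Dlx4. At Dlx5/Dlx6 they were 2719 bp with touching peaks and 35413 bp with gaps of 10 kb, so the length of a domain is set by the gap allowed. With 50% reciprocal overlap, replicate 1 peaks were shared at 66.7%, 47.9% and 53.6% and replicate 2 peaks at 58.3%, 57.4% and 68.2% in the order Dlx1/Dlx2, Dlx3/Dlx4, Dlx5/Dlx6.

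Around the start sites, the 5 kb window gave 74.5% for Dlx1, 55.8% for Dlx2, 61.2% for Dlx4 and 40.6% for Dlx5. The 50 kb window gave 26.2% for Dlx1, 23.8% for Dlx2 and 15.5% for Dlx5 and Dlx6. Leaving out a replicate gives the other replicate's value. No paired analysis was possible because the study has 1 group. Unknown depth limits every absence: a stretch without peaks is one where none was called.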

Other observations

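Other genes of the windows were marked to different degrees. Along its whole record Itga3 (chr11:95044475-95076844, minus strand) had 53.4% of bases in peaks of replicate 1 and 40.6% in replicate 2, and its start lay between replicated peaks 45 bp upstream and 682 bp downstream. Metap1d (chr2:71453281-71525194, plus strand) had 18.9% and 16.6%.

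The antisense and long non-coding records that overlap the Dlx genes share their bases, so their coverage is not separate from that of their hosts. Dlx1as had 55.7% and 52.1% of bases in peaks, Dlx4os 39.0% and 30.3%, and Dlx6os2 62.5% and 60.3%. Dlx6os1, which runs over 51085 bp across Dlx6 and its upstream flank, had 18.6% and 13.97%. Gm11515, beyond Dlx4, had 36.8% and 29.0%, and the small nuclear RNA Gm22155 beyond Dlx5 had 0% in both replicates.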
